A study of Homo sapiens with 4 samples.

Results

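Collagen chain genes code for the polypeptides of the collagen family. They were taken here as every row of the deposited expression table whose symbol is COL, a number, A and a number, which gave 44 of 56832 rows. Of these, 39 averaged 10 or more normalised counts across the 4 libraries and were tested, and 5 (COL20A1, COL25A1, COL6A5, COL28A1 and COL10A1) lay under it. COL10A1 was the nearest outside, at a mean of 9.32, and COL23A1 and COL6A6 the nearest inside, at 10.2 and 10.7. The cells were A375, an established human melanoma line labelled wild type and grown in DMEM with fetal bovine serum. One group of 2 libraries came from cells given 1 mM octanoate, a medium-chain fatty acid, and the other group of 2 from cells given its solvent, isopropanol, each for 48 h. The study was set up to find genes and gene signatures raised by such fatty acids. The labels do not say whether the 2 libraries of a group came from separate cultures. The p-values therefore measure the spread between these libraries only, which may be technical. The test shares that spread among genes of like level, so a small p does not rest on a gene's own libraries alone.

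Every collagen is built from chains that wind around each other into a helix, and a chain is secreted only once it has found its partners. Fibrillar collagens form the cables of skin, bone and cartilage. Type IV collagens form the mesh of basement membranes, type VI collagens form beaded filaments around cells, and FACIT collagens sit on the surface of fibrils. Other members span the plasma membrane or build short-chain networks. In tumours, collagen comes both from stromal cells and from the tumour cells themselves, and a cultured line holds only the latter.

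The libraries held 67785956 to 78005035 recovered reads. The melanocyte lineage factor SOX10 stood between 34072 and 41363 normalised counts in every library, while the pigment genes PMEL and MLANA stayed under 100. Other markers of the lineage list moved: with limma, S100B was called lower (2.18-fold), as were NGFR (1.55-fold) and the lineage factor MITF (1.39-fold), and the receptor AXL (1.34-fold) and PMEL (1.47-fold) were called higher. Summed fibroblast markers (DCN, LUM, PDGFRA, PDGFRB and FAP) came to 2236 and 2146 with vehicle and 2158 and 1978 with octanoate. Leukocyte markers PTPRC, CD3E and CD68 each had a mean under 10, and LYZ made up nearly all of that list's sum. No marker of any list was at 0 in every library. Epithelial markers summed to 1166 and 988 with vehicle against 307 and 266 with octanoate, nearly all of it KRT14, a keratin of basal epithelium.

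With octanoate, collagen chains were called in both directions, and whether the classes differ was not tested. Chains of the basement membrane class, here type IV only, and of the beaded filament class that passed the test rose. Of the 8 fibrillar chains that passed it, 7 fell. COL15A1, a basement membrane collagen classed here as a multiplexin, also fell. The largest rise was COL6A3, 4.68-fold, and the falls of 3-fold or more among chains with a mean of at least 100 were COL8A1 and COL2A1. With limma, 24 of the 39 tested chains were called at an adjusted p under 0.05, against 29.9% of all 20250 tested genes. Of the chains, 11 were called higher and 13 lower, against 16.2% and 13.7% of all tested genes. A call with at least a 2-fold change was made for 8 chains, and for 4.21% of all tested genes. The groups did not overlap for 34 chains, as for 63.1% of all tested genes. The median log2 difference (octanoate minus vehicle) was -0.03 over the chains and 0.01 over all tested genes, and the median size regardless of sign was 0.49 against 0.19. The filter decided which chains were tested: COL9A1, COL6A6, COL26A1 and COL23A1 passed it although one of their group means lay under 10. At a mean of at least 100, 17 of 23 chains were called, against 38.3% of all tested genes of that level. Between 10 and 100, 7 of 16 were called, against 13.1%. In a bulk sample, fewer cells that express a gene and less RNA per cell cannot be told apart.

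**Figure D1:**
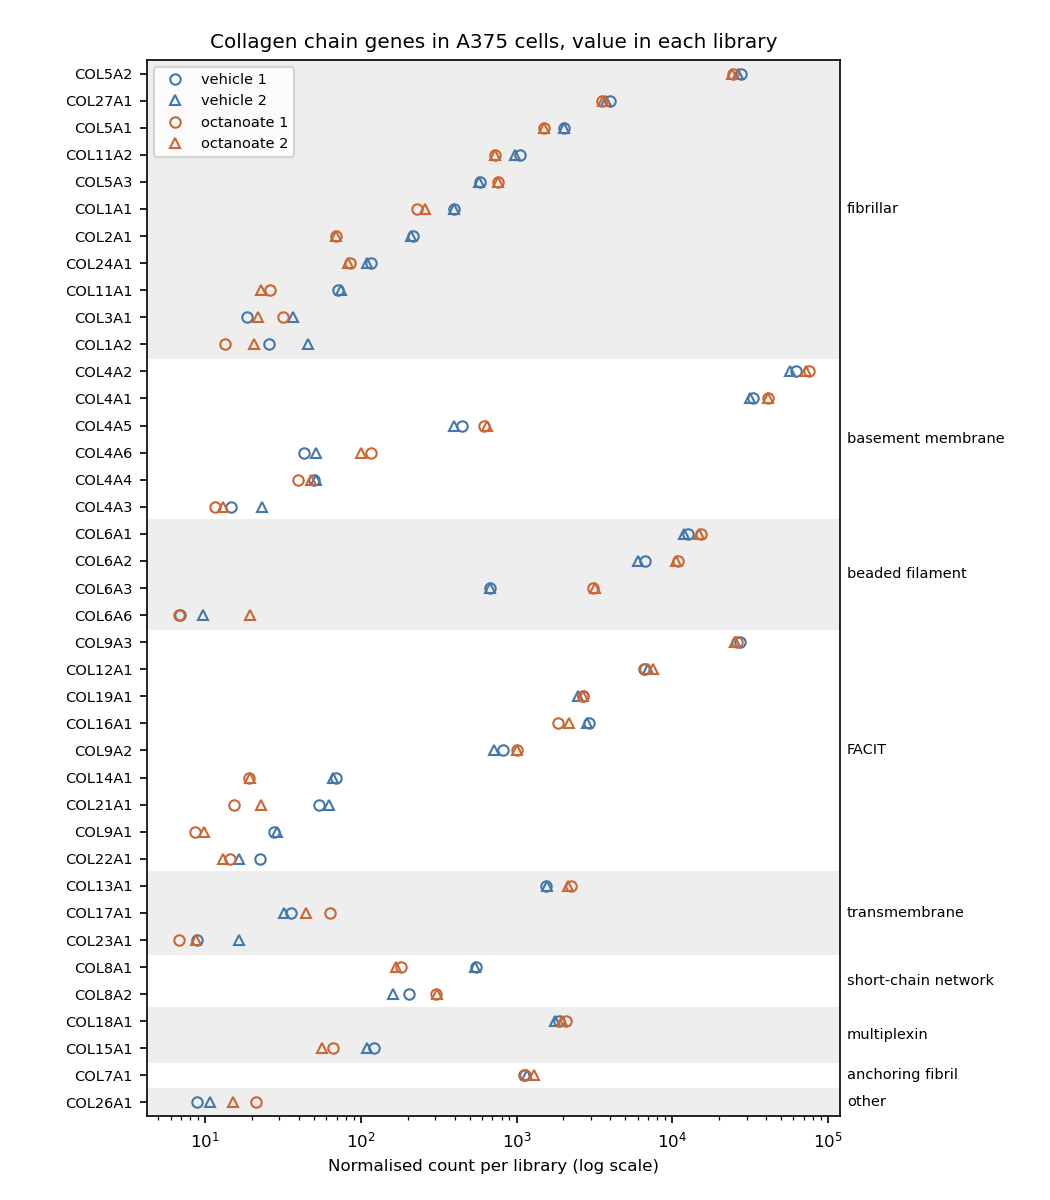
Normalised count (log axis) of each of the 39 tested collagen chain genes in the 4 libraries, grouped by class, with circles for replicate 1 and triangles for replicate 2. COL6A3, COL8A1 and COL2A1 show wide gaps between vehicle (blue) and octanoate (orange), while both groups coincide for COL9A3.

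The promoters of 3 chains are shown, from RefSeq (GRCh38.p14), each running from 250 bases before the gene's start to 50 after it. COL6A3 is shown as the chain with the largest rise, and COL4A1 and COL4A2 as a pair of neighbours that rose together. COL8A1 and COL2A1 are named only. Capitals mark matches, on either strand, of CCAAT or GGGCGG. COL6A3 lies at chr2:237414115-237414414 on the minus strand, COL4A1 at chr13:110307108-110307407 on the minus strand and COL4A2 at chr13:110307034-110307333 on the plus strand.
COL6A3: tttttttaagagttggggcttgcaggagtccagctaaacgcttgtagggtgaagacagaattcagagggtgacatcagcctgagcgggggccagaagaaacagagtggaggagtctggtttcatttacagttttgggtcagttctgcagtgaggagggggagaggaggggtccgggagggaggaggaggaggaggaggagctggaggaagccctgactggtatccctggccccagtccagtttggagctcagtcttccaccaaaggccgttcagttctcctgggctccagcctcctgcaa
COL4A1: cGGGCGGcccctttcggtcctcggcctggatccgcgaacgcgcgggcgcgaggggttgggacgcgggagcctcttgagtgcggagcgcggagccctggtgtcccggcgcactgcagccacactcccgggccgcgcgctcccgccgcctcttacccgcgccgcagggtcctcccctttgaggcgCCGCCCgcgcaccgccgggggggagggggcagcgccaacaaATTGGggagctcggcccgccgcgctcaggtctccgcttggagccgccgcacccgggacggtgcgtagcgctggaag
COL4A2: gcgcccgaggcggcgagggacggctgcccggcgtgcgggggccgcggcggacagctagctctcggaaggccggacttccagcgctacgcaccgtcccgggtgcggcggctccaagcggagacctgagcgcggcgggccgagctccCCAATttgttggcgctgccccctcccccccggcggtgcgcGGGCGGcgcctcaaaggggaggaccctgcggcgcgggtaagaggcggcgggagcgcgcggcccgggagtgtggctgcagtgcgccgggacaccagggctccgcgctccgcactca
The COL4A1 and COL4A2 windows share 226 bases, since the 2 genes start 127 bases apart and run in opposite directions. Each of the pair has 1 CCAAT match, the same site read from either side. COL4A1 has 2 GGGCGG matches and COL4A2 has 1, and the one they share lies in the common bases. In composition, G and C make up 76.7% of the COL4A1 window, 77.7% of the COL4A2 window and 56.3% of the COL6A3 window, against a median of 58.7% over all promoters. The COL6A3 window held no match of any motif searched, and the COL4A1 and COL4A2 windows none of the other 3. Among 35116 promoters of the same length, TATAAA was found on either strand in 11.5%, CCAAT in 34.6%, GGGCGG in 45.0%, TGANTCA in 7.71% and TGACGTCA in 1.85%. Each motif was counted by itself, whether or not a match overlapped that of another motif. A match describes the letters only.

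The beaded filament class, type VI collagen, held the chain with the largest rise. Type VI collagen is assembled from COL6A1, COL6A2 and one longer chain, most often COL6A3, and lies as microfilaments between the cell surface and the matrix. COL6A3 (chr2:237324003-237414375, minus strand, GENCODE 29 on GRCh38) had 675 and 672 normalised counts with vehicle and 3111 and 3198 with octanoate. Both octanoate libraries were high and the groups were far apart, with means of 674 ± 2.07 and 3155 ± 61.6 (SD, n = 2). The log2 difference was 2.23 with a standard error of 0.07 (limma, adjusted p = 2.63e-17).

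COL6A2 (chr21:46098097-46132849) measured 6662 and 6026 with vehicle and 10865 and 10481 with octanoate. Its groups did not overlap, and it rose 1.68-fold (log2 difference 0.75, standard error 0.06, limma adjusted p = 7.20e-10). COL6A1 (chr21:45981737-46005050), its neighbour on the same strand of chromosome 21, measured 12698 and 11835 with vehicle and 15350 and 14878 with octanoate. This was the smallest of the 3 rises, 1.23-fold (log2 difference 0.30, standard error 0.06, limma adjusted p = 0.000267), again without overlap. COL6A6, an alternative to COL6A3, had 6.87 and 9.69 counts with vehicle and 6.74 and 19.5 with octanoate. Its groups overlapped, and the 95% interval of its log2 difference, -0.67 to 1.59, was too wide to place it. COL6A5, the other alternative chain, stayed under the mean of 10. In all, 3 of the 4 tested chains of the class rose and none fell, with a class median of 0.60. Without an intensity trend in limma's variance prior, COL6A1 was no longer called (adjusted p = 0.0945).

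COL6A3 thus rose more than its partners, which the ratios within each library show directly. The log2 ratio of COL6A3 to COL6A1 was 1.92 higher in the octanoate mean than in the vehicle mean, and that of COL6A2 to COL6A1 was 0.45 higher, both without overlap between groups. Scaled by exon length, COL6A3 stood at 0.0145 and 0.0155 of the COL6A1 level with vehicle and at 0.0552 and 0.0585 with octanoate. COL6A3 remained far below its partners per length in every library.

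All 6 type IV chains were tested in the basement membrane class, and the 4 that were called rose. COL4A1 and COL4A2 together make the type IV network found in nearly all basement membranes. COL4A1 (chr13:110148963-110307233, minus strand) had 32962 and 31597 counts with vehicle and 41451 and 41453 with octanoate. COL4A2 had 61846 and 57047 with vehicle and 74913 and 71729 with octanoate. Both octanoate libraries were above both vehicle libraries for each gene. The rises were small, 1.28-fold for COL4A1 (log2 difference 0.36, standard error 0.06, limma adjusted p = 3.27e-05) and 1.23-fold for COL4A2 (0.30, standard error 0.06, limma adjusted p = 0.000642). Scaled by exon length, the ratio of COL4A1 to COL4A2 overlapped between groups, at 0.698 and 0.725 with vehicle and 0.724 and 0.757 with octanoate.

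COL4A5 and COL4A6, also head to head, start 347 bases apart on chromosome X in GENCODE 29. Their products form a network found in the basement membranes of smooth muscle and skin. COL4A5 measured 443 and 394 with vehicle and 614 and 643 with octanoate, a 1.50-fold rise without overlap (log2 difference 0.59, standard error 0.09, limma adjusted p = 3.88e-05). COL4A6 (chrX:108155607-108439497, minus strand) measured 43.2 and 51.3 with vehicle and 116 and 101 with octanoate, also without overlap. Its log2 difference of 1.18 was the largest of the class, with a 95% interval of 0.77 to 1.60 (limma, adjusted p = 7.35e-05). The ratio of COL4A5 to COL4A6 was accordingly lower with octanoate, by 0.60 on the log2 scale, in both libraries.

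COL4A3 and COL4A4 are known from the kidney's filtering membrane and likewise start head to head, 112 bases apart on chromosome 2. COL4A3 had 14.7 and 23.3 counts with vehicle and 11.6 and 13.0 with octanoate, and COL4A4 had 50.1 and 51.3 against 39.5 and 47.7. Neither passed the test, with 95% intervals of the log2 difference of -1.42 to 0.31 and -0.72 to 0.28. The median of the class was 0.33. Beside these rises, the summed endothelial markers (PECAM1, CDH5, VWF and KDR), another cell type that makes type IV collagen, were 580 and 576 with vehicle and 792 and 787 with octanoate. PECAM1 was called higher (1.94-fold, limma adjusted p = 1.05e-05), as was VWF (65.8 and 63.9 against 89.5 and 95.4, limma adjusted p = 0.0479). KDR (adjusted p = 0.0542) and CDH5, at 8.66 to 21.7 counts, were not called. None of these 4 markers was at 0 in every library. The samples were labelled as a melanoma line, and the part of any other cells in the result was not tested. Without the intensity trend, COL4A1 and COL4A2 were not called (adjusted p = 0.0599 and 0.104), which left 2 chains.

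**Figure D2:**
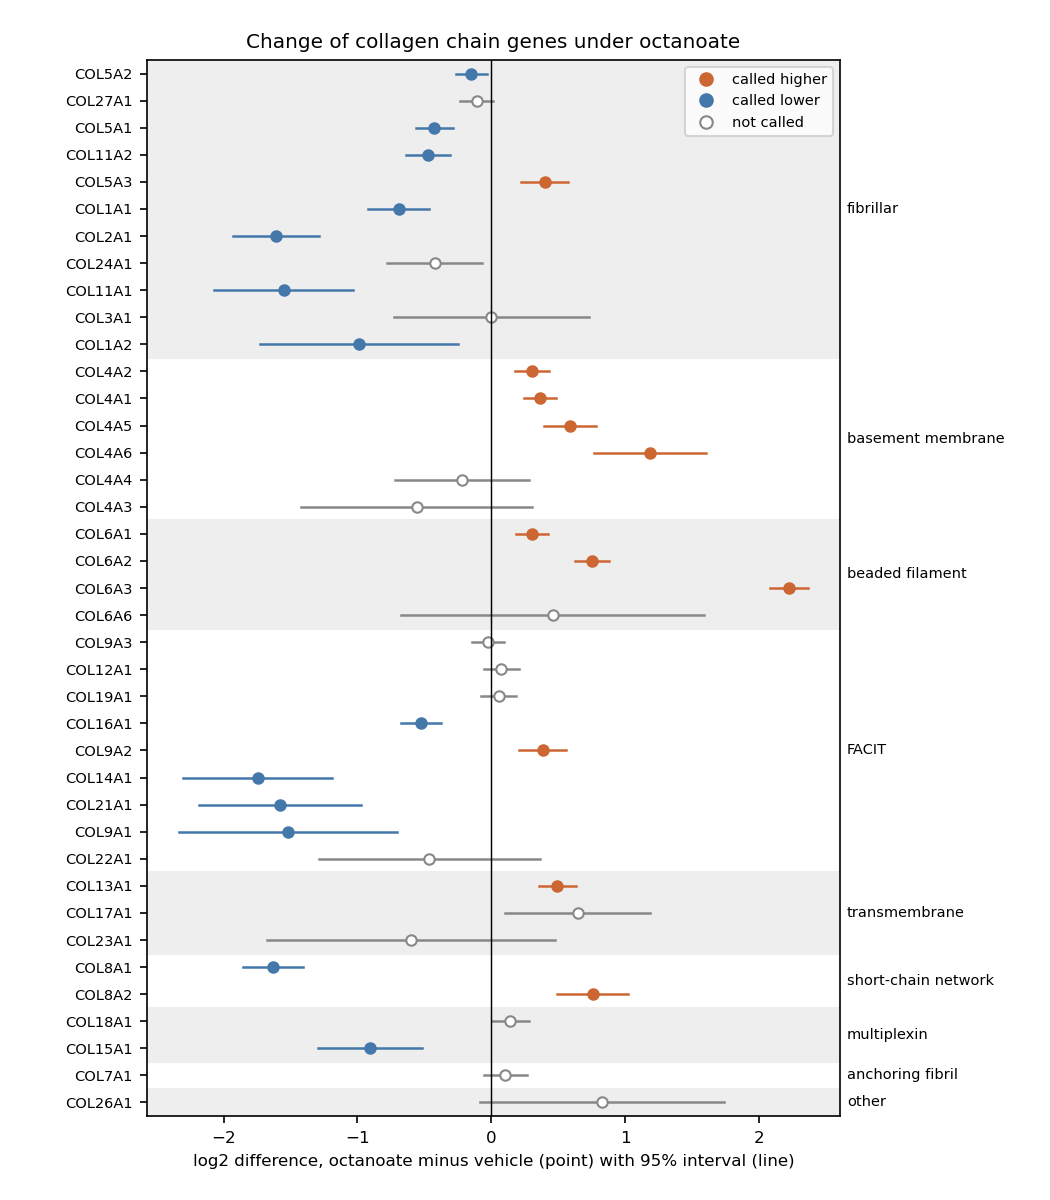
Log2 difference (octanoate minus vehicle) of each tested chain with its 95% interval from limma, grouped by class. Filled points were called and lie right of 0 for the type IV and type VI chains that passed, and left of 0 for all called fibrillar chains except COL5A3.

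Most of the called fibrillar chains went the other way. Of the 11 chains of the class, 7 fell, 1 rose and 3 did not pass the test, with a class median of -0.43. COL2A1 (chr12:47972965-48004554, minus strand), the main fibril chain of cartilage, had 216 and 210 counts with vehicle and 69.3 and 69.4 with octanoate. Both octanoate libraries were low, a 3.07-fold fall (log2 difference -1.61, standard error 0.16, limma adjusted p = 2.07e-08). COL11A1 and COL11A2 code for chains of type XI collagen, which starts and narrows cartilage fibrils. COL11A2 had 1046 and 982 counts with vehicle and 730 in each octanoate library, a fall of 0.47 on the log2 scale (standard error 0.08, limma adjusted p = 6.26e-05). COL11A1 had 71.7 and 74.6 counts with vehicle and 26.0 and 22.8 with octanoate, and fell by 1.55 (95% interval -2.07 to -1.03). The log2 ratio of COL11A1 to COL11A2 was 1.08 lower with octanoate, without overlap.

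Type I collagen is the most abundant collagen of skin and bone, while in these vehicle libraries COL1A1 ranked 19 and COL1A2 ranked 35 of the 39 chains in level per exon length. COL1A1 had 394 and 393 counts with vehicle and 228 and 259 with octanoate, a 1.62-fold fall without overlap (log2 difference -0.69, standard error 0.11, limma adjusted p = 3.63e-05). COL1A2, its partner, had 25.5 and 45.5 counts with vehicle and 13.5 and 20.6 with octanoate. It was called lower by a narrow margin (log2 difference -0.99, 95% interval -1.73 to -0.25, limma adjusted p = 0.0394). The call was lost without octanoate replicate 1 (adjusted p = 0.208), without vehicle replicate 2 (0.387), with DESeq2 on the recovered reads (0.156), without a filter (0.242), without the intensity trend (0.188) and with equal library totals (0.0551). COL3A1, which forms fibrils with type I collagen in skin and vessels, had 18.6 and 36.8 counts with vehicle and 31.8 and 21.7 with octanoate, and its groups overlapped.

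Among the type V chains, which start the assembly of type I fibrils, direction differed between chains. COL5A1 fell from 2028 and 2007 counts with vehicle to 1503 and 1499 with octanoate (log2 difference -0.43, standard error 0.07, limma adjusted p = 2.50e-05). COL5A3, a less widespread chain, rose from 578 and 575 to 757 and 764 (log2 difference 0.40, standard error 0.08, limma adjusted p = 0.000797). The replicates of both lay close together and far from the other group. COL5A2, the fibrillar chain with the highest level per exon length, had 27501 and 26513 counts with vehicle and 24466 and 24229 with octanoate. Its fall was 1.11-fold (log2 difference -0.15, standard error 0.06, limma adjusted p = 0.0484). Leaving out any 1 of the 4 libraries ended that call, with adjusted p from 0.0600 without vehicle replicate 2 to 0.234 without octanoate replicate 2. The log2 ratio of COL5A1 to COL5A2 was 0.28 lower with octanoate (difference -0.28) and that of COL5A3 to COL5A2 was 0.55 higher, both without overlap.

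COL24A1 and COL27A1 are minor fibrillar chains. COL24A1 measured 117 and 109 with vehicle and 85.7 and 82.4 with octanoate, without overlap but not called (log2 difference -0.42, limma adjusted p = 0.0660). COL27A1 measured 3956 and 3731 against 3559 and 3564, and the 95% interval of its log2 difference ran from -0.23 to 0.02. It was called lower once GC and length trends were removed (log2 difference -0.17, adjusted p = 0.00555). Of the fibroblast markers, FAP was called lower, at 31.4 and 28.1 with vehicle and 12.5 and 13.0 with octanoate. DCN, LUM, PDGFRA and PDGFRB were not called, and the sum of the list, given above, overlapped between groups. The samples were labelled as a melanoma line, and the part of any fibroblasts in the fibrillar falls was not tested.

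Most of the FACIT chains that were called fell. Of the 9 tested, 4 fell, 1 rose and 4 did not pass, and the tenth, COL20A1, was too low to test. The class median of -0.46 was the value of COL22A1, which was not called and had a mean of 16.6. Among the FACIT chains with a mean of at least 100, COL16A1 fell and COL9A2 rose. COL9A3, COL12A1 and COL19A1, also at that level, were not called. COL16A1, a FACIT chain of skin and cartilage, had 2904 and 2825 counts with vehicle and 1835 and 2154 with octanoate. The octanoate libraries differed from each other yet both lay below the vehicle libraries (log2 difference -0.53, standard error 0.07, limma adjusted p = 3.89e-06). The call was lost without the intensity trend (adjusted p = 0.0733). The 3 other falls came from chains with means under 100. COL14A1, a chain on the fibrils of skin and tendon, had 68.7 and 65.9 counts with vehicle and 19.3 and 19.5 with octanoate. This was the largest fall of any tested chain (log2 difference -1.74, 95% interval -2.30 to -1.19, limma adjusted p = 2.07e-05). COL21A1 fell by 1.58 from 54.0 and 62.0 to 15.4 and 22.8. COL9A1 fell by 1.52 from 27.5 and 29.1 to 8.66 and 9.75, a call that was lost when all genes were tested without a filter on low values (adjusted p = 0.0572).

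COL9A1, COL9A2 and COL9A3 code for the chains of type IX collagen, which coats cartilage fibrils, and they did not move together. COL9A2 rose from 822 and 716 to 999 and 1000.3 (log2 difference 0.38, standard error 0.08, limma adjusted p = 0.00107). COL9A3 had 27123 and 25109 counts with vehicle and 26076 and 25213 with octanoate. Its groups overlapped, and the interval of its log2 difference, -0.15 to 0.10, was among the narrowest of the family. The COL9A2 call was lost without the intensity trend (adjusted p = 0.101). COL12A1, found on fibrils of tendon and fascia, ranged from 6546 to 7546 over the libraries with overlap between groups (interval -0.06 to 0.21). COL19A1, a chain of basement membrane zones that lies beside COL9A1 on chromosome 6, ranged from 2496 to 2685 (interval -0.08 to 0.19). COL22A1, a chain of tissue junctions, had 22.6 and 16.5 counts against 14.4 and 13.0, and was not called (interval -1.29 to 0.36).

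Transmembrane collagens sit in the plasma membrane with their collagen part outside the cell. COL13A1, known from cell adhesion sites and the neuromuscular junction, had 1543 and 1565 counts with vehicle and 2238 and 2135 with octanoate. It rose 1.41-fold without overlap (log2 difference 0.49, standard error 0.07, limma adjusted p = 3.54e-06). COL17A1, which anchors basal skin cells to the basement membrane, had 35.3 and 32.0 against 63.5 and 44.4 and missed the threshold (log2 difference 0.65, limma adjusted p = 0.0659). It passed without octanoate replicate 2 (adjusted p = 0.0362), where the class count became 2. COL23A1 had 8.83 and 16.5 against 6.74 and 8.67 (interval -1.68 to 0.48), and COL25A1 was too low to test. The class thus had 1 rise and no fall among 3 tested chains, with a median of 0.49.

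The short-chain class gave the sharpest contrast between partners. COL8A1 and COL8A2 form the hexagonal network known from the cornea and vessel wall. COL8A1 (chr3:99638475-99799226, plus strand) had 545 and 540 counts with vehicle and 180 and 169 with octanoate, a 3.11-fold fall (log2 difference -1.63, standard error 0.11, limma adjusted p = 3.24e-11). COL8A2 had 204 and 162 with vehicle and 305 and 310 with octanoate, a 1.68-fold rise (log2 difference 0.76, standard error 0.13, limma adjusted p = 7.68e-05). Neither gene's groups overlapped. Scaled by exon length, the level of COL8A1 was 1.32 and 1.66 times that of COL8A2 with vehicle and 0.293 and 0.271 times with octanoate, so the order of the pair turned. The log2 ratio of their counts differed by -2.39 between the groups. The COL8A2 call was lost without the intensity trend (adjusted p = 0.0649). COL10A1, the remaining chain of the class and a mark of hypertrophic cartilage, was too low to test.

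**Figure D3:**
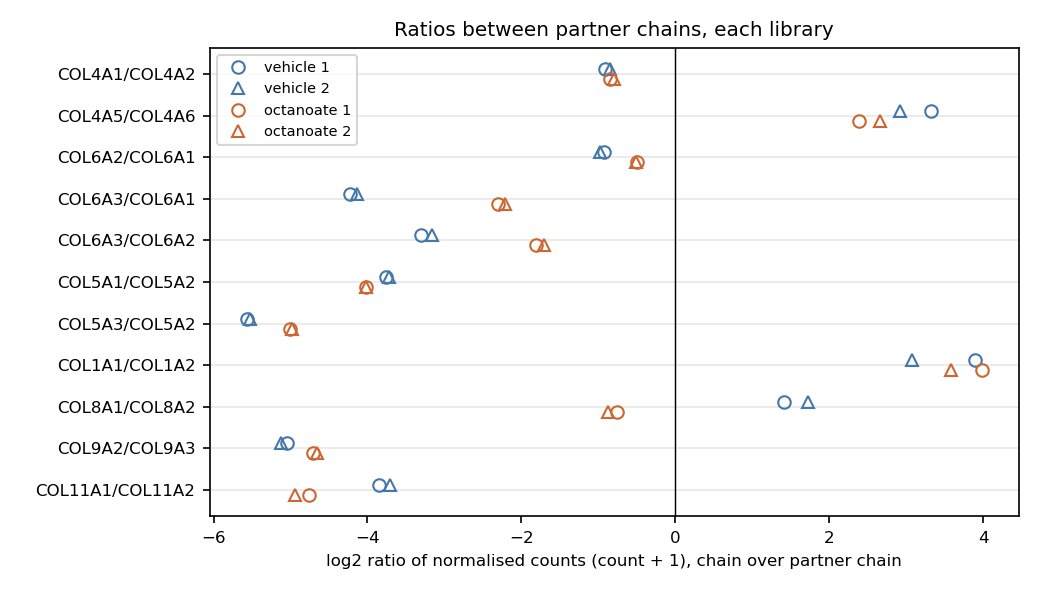
Log2 ratio of normalised counts (count + 1) between chains that assemble together, in each of the 4 libraries. The COL8A1/COL8A2 ratio crosses 0 and the COL6A3 ratios move to the right with octanoate, while the COL4A1/COL4A2 and COL1A1/COL1A2 ratios overlap between groups.

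Of the remaining chains, COL15A1 fell and 3 others were not called. COL15A1 and COL18A1 are multiplexins, basement membrane collagens that carry heparan or chondroitin sulphate chains. COL15A1 fell by 0.90 on the log2 scale, from 122 and 109 counts with vehicle to 66.4 and 56.4 with octanoate (95% interval -1.29 to -0.52, limma adjusted p = 0.000636). COL18A1, the source of the fragment endostatin, had 1877 and 1766 against 2069 and 1951, without overlap but not called (log2 difference 0.14, limma adjusted p = 0.121). COL7A1, the anchoring fibril chain of skin, ranged from 1108 to 1302 with overlap (interval -0.06 to 0.27). COL26A1 had 8.83 and 10.7 against 21.2 and 15.2 (interval -0.09 to 1.73).

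Some of these counts may include, or lack, reads from exons shared with a gene on the opposite strand. Whether counting used strand is not given in the sources used here, nor how it treated reads in shared exons. In GENCODE 29, exons of COL18A1 overlap those of SLC19A1 by 1401 bases, and those of COL5A3 overlap AC008742.1 by 270. The overlaps of COL4A2, COL4A3, COL9A1, COL9A3, COL15A1, COL16A1 and COL19A1 were shorter, from 45 to 137 bases. No chain shared a stretch of 100 bases or more at 95% identity with another transcript on its own strand.

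To compare levels between chains, values were put in RPKM-type units, that is normalised counts per kilobase of exon scaled to the library's total. COL9A3 had the highest level with vehicle (73.0 ± 1.76, SD, n = 2), followed by COL5A2 (49.0 ± 0.22), COL4A2 (41.7 ± 1.11), COL6A1 (31.1 ± 0.60), COL4A1 (29.6 ± 0.02), COL6A2 (15.9 ± 0.64) and COL12A1 (7.32 ± 0.53). Each of these was separate from the next in both libraries. From rank 18 (COL8A1) down, many neighbours overlapped, such as COL1A1, COL8A2 and COL4A5. With octanoate COL6A3 stood at rank 14 of 39 in place of 22, COL4A2 exchanged places with COL5A2, COL16A1 stood at 13 in place of 8, and COL8A1 at 22 in place of 18. With the longest transcript in place of all exons, COL5A2 ranked 4 rather than 2 with vehicle and 5 rather than 3 with octanoate. COL4A2 then ranked 2 and COL4A1 ranked 3 with vehicle, both above COL5A2 and COL6A1. On that scale COL4A2 lay above COL5A2 in both groups, so their exchange of places depends on the length used. COL9A3 then ranked 1 with vehicle but 2 with octanoate, behind COL4A2, while COL6A3 ranked 20 and 14, COL16A1 8 and 11, and COL8A1 17 and 22.

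**Figure D4:**
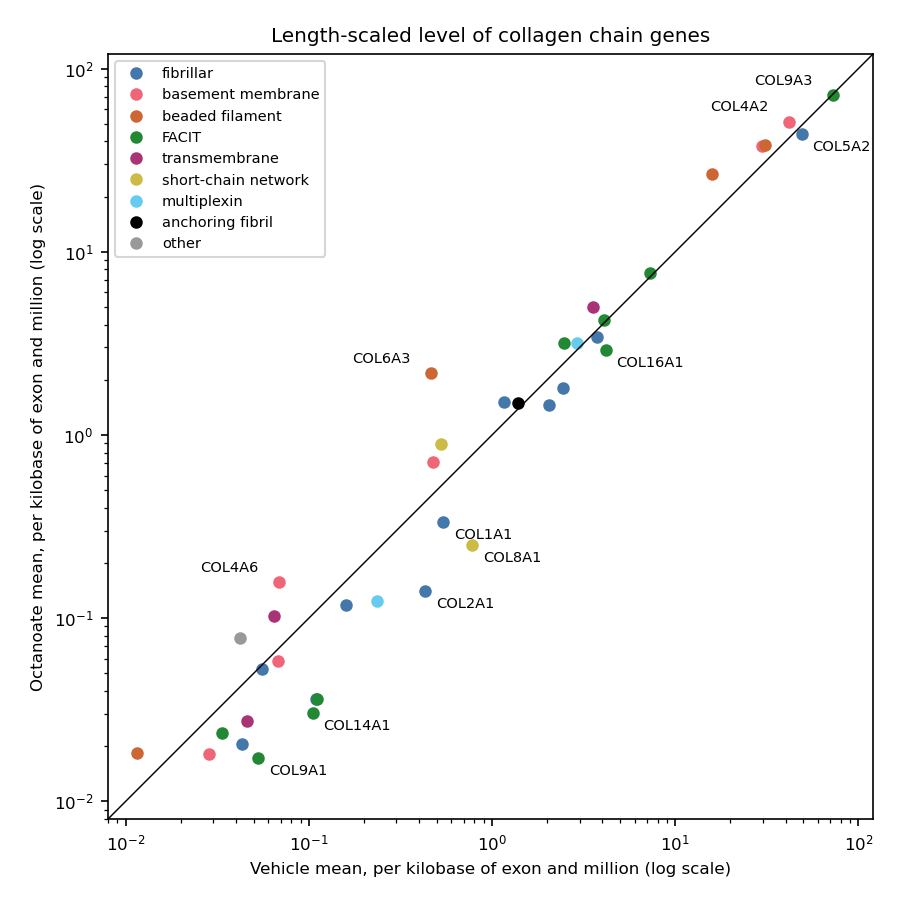
Mean level in RPKM-type units (normalised count per kilobase of exon, scaled to the library total) in octanoate against vehicle for the tested chains, both axes log scale, coloured by class, with the line of equality. COL6A3 lies farthest above the line, and COL8A1, COL2A1, COL14A1 and COL9A1 lie below it.

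Summed over all chains, collagen made up 0.261% and 0.257% of all normalised counts with vehicle and 0.296% and 0.297% with octanoate, so both octanoate libraries were higher. COL4A1 and COL4A2 held 48.1% and 47.6% of that sum with vehicle and 52.3% and 51.8% with octanoate. These shares are of counts, in which a long transcript weighs more than a short one.

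In the authors' deposited table, 22 of the 44 chains had an adjusted p under 0.05, 11 higher and 11 lower, where 12.9% of the 33533 genes it lists did. All 22 were also called with limma, in the same direction. COL1A2 and COL9A1 were called with limma only. The authors' deposited table gives COL1A2 an adjusted p of 0.207. It gives COL9A1 an unadjusted p of 0.0206 (the authors' DESeq2) and a log2 fold change of -1.62. The adjusted p of COL9A1 is listed as 1.0, as for every chain with a lower mean. For COL6A3 it gives a log2 fold change of 2.23.

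Genes that modify, export, trim, cross-link or bind collagen were taken as a list of 53, of which 50 were tested. Of these, 12 were called higher and 11 lower, beside 16.2% and 13.7% of all tested genes, and 29.9% called in either direction. The counts by role below are small and stand beside the same shares. Whether the roles differ was not tested. Prolyl hydroxylases stabilise the helix. P4HA2 rose from 3409 and 2984 to 4452 and 4444 counts (log2 difference 0.48, limma adjusted p = 3.95e-06) and P4HA3 from 48.1 and 42.6 to 78.9 and 95.4 (0.92, limma adjusted p = 0.00185). P3H2, which hydroxylates type IV collagen in particular, fell from 645 and 618 to 402 and 397 (log2 difference -0.66). In that role 3 genes rose and 3 fell of 13. COLGALT2, which adds galactose to hydroxylysine, rose by 0.30 (limma adjusted p = 0.0271), the 1 call among 2 such genes.

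SERPINH1, the collagen chaperone HSP47, fell from 11485 and 10302 to 7097 and 6687 (log2 difference -0.66, limma adjusted p = 1.07e-08). It was the 1 fall among 10 chaperone and secretion genes, of which 3 rose. PCOLCE, which speeds removal of the fibrillar propeptide, fell by 0.59 (7218 and 6156 to 4643 and 4241), and 1 other of the 7 tested processing genes rose. LOXL4, a lysyl oxidase that cross-links collagen, fell from 55464 and 47445 to 16475 and 15560 (log2 difference -1.68, limma adjusted p = 1.62e-15). None of the 5 cross-linking genes rose and 2 fell, beside 16.2% of all tested genes called higher and 13.7% lower. PRELP, a proteoglycan that links collagen to basement membranes, fell by 0.84 (141 and 121 to 71.2 and 73.7), 1 of 2 falls among 4 tested proteoglycans.

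The collagen receptors held the largest rises of the list. ITGA2, the alpha chain of a collagen-binding integrin, rose from 6179 and 6190 to 20748 and 22881 counts (log2 difference 1.82, standard error 0.06, limma adjusted p = 4.36e-17). ITGA1, its close relative, which prefers type IV collagen, rose from 7745 and 7971 to 18969 and 20917 (log2 difference 1.34, limma adjusted p = 1.44e-14). The exons of ITGA1 overlap those of PELO on the same strand, and how reads in shared exons were counted is not given in the sources used here. ADGRG1, an adhesion receptor for type III collagen, rose by 0.54 from 10137 and 9188 to 14226 and 13871. Of 9 receptors, 4 rose and 2 fell, beside 16.2% of all tested genes called higher and 13.7% lower. Both octanoate libraries lay above both vehicle libraries for ITGA1, ITGA2 and ADGRG1. Exons of LOXL4, P4HA2, P4HA3 and PCOLCE overlap antisense genes.

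**Figure D5:**
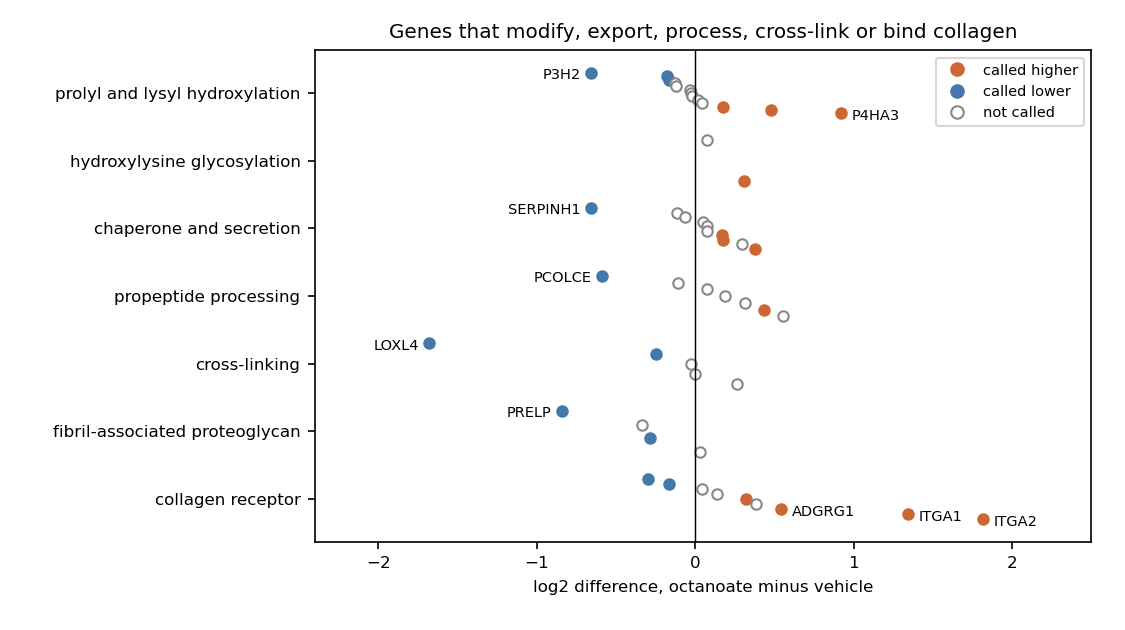
Log2 difference (octanoate minus vehicle) of the 50 tested genes of collagen modification, secretion, processing, cross-linking and binding, by role, with filled points called by limma. ITGA2 and ITGA1 lie farthest right and LOXL4 farthest left.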

How the data were processed

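RNA was sequenced from 2 vehicle and 2 octanoate libraries, grouped by the labels. The submitters' processing notes name bcl2fastq 2.17, Trim Galore, STAR 2.4, Picard, HTSeq 0.9.1, DESeq2 and the build hg38, with no role or order. The annotation and the strand setting are not given in the sources used here. The deposited values are a signal, counts normalised by the authors per library, as the table is named. Each was a whole multiple of the value of 1 read (100% within 0.001), from which the reads were recovered. The authors' deposited comparison holds log2 fold changes, a test score and p-values, with adjusted p-values.

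The main test, two-sided, was that of limma 3.58.1 (R 4.3.3). It took genes with a mean of at least 10, as log2 of the normalised count plus 1. The prior variance followed intensity, and Benjamini-Hochberg adjustment was made over all of these genes. That prior carried 21.2 degrees of freedom, so each gene's variance came largely from other genes of like intensity. Log2 differences on this scale understate the change of low genes. With 2 libraries a group, no exact permutation test can go below p = 0.333. The fit was tested on simulated data with fewer changed genes than were called here and no added library effects, which does not test these calls. Replicates differed from each other by more than sampling noise (chi-square per degree of freedom 5.29 and 7.28). Intervals and depth cover counting and library spread only.

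The chains and gene lists were chosen with earlier results of these data known. All tested chains are named. Called chains with a mean of at least 100 are given in full. From the pathway list, the genes named were those called with a log2 difference of at least 0.5 in size and the smallest p of each role. The COL5A3/COL5A2 and COL11A1/COL11A2 ratios were added after their values were seen. Lengths and overlaps came from GENCODE 29 and promoters from RefSeq, which held 32 of the chains. Alternatives were edgeR 4.0.16 and DESeq2 1.42.0 on recovered reads, other scalings, filters and pseudocounts, no intensity trend, GC and length trends removed, a replicate block, and each library left out.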

Additional observations from a re-analysis of the deposited data

How the results depend on the processing

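Over 17 alternatives the called chains numbered 16 (no intensity trend) to 28 (replicate block, with or without GC and length correction), and 22 to 24 with 1 library left out. Of the 24 called, 15 kept call and direction in every alternative that tested them, 9 lost the call in at least 1, and none turned. Of the 15 not called, 5 were called in some alternative: COL17A1, COL18A1, COL24A1 and COL27A1 with the replicate block (adjusted p = 0.0372, 0.0212, 0.0430 and 0.0436), and COL9A3 with the block and GC correction (0.00828). Of all genes, 6048 were called (54.1% higher), 2595 without a filter (61.5%), 1625 without the intensity trend (67.4%), 6934 after GC and length correction (42.3%, and 42.4% with the replicate block), 8376 with the replicate block, 6480 with edgeR and 4924 with DESeq2 on the recovered reads, and 4295 without vehicle replicate 1 (64.5%). Deviations of same-numbered replicates correlated at r = 0.126 over genes and 0.270 over those with a mean of at least 100, the labels do not say what the numbers mark, and 2 pairs cannot settle it. The chains' median log2 difference was -0.10 after GC and length correction, alone or with the replicate block, 0.090 at a mean of at least 50, and -0.11 to -0.067 with 1 library left out. Called FACIT chains were 2 at a mean of at least 50, 3 without a filter and 3 without the intensity trend, which also left 2 basement membrane and 1 short-chain network chain. The replicate block gave 2 multiplexin and 2 transmembrane calls, the latter also with GC correction. Leaving out 1 library gave 1 to 2 transmembrane calls. Pathway calls were 23, 13 without a filter, 8 without the trend and 16 to 19 with 1 library left out. The COL1A1/COL1A2 ratio difference, 0.30, ran from -0.11 without vehicle replicate 2 to 0.70 without vehicle replicate 1. The COL11A1/COL11A2 difference was -0.94 at a pseudocount of 5, and those of COL5A1/COL5A2 and COL5A3/COL5A2 were -0.33 and 0.48 after GC and length correction. The stricter filter and the left-out libraries leave fewer chains or samples by construction. For the others the cause was not tested. Depth limits the chains with means under 100, whose intervals are wide.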

Other observations

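Genes with a collagen-like stretch outside the chain family, a list of 33 written after the data were seen, were matched for 32, and 18 were tested. With limma, 3 rose and 5 fell, and 10 were not called, where 29.9% of all tested genes were called. COLEC12, a scavenger receptor with a collagen-like stalk, had 589 and 482 normalised counts with vehicle and 1106 and 1080 with octanoate (log2 difference 1.03, limma adjusted p = 4.37e-09). EMID1 had 43.2 and 37.8 against 82.8 and 87.8 (1.06, limma adjusted p = 0.000572), and MSR1, a macrophage scavenger receptor, 565 and 606 against 853 and 903 (0.58, limma adjusted p = 9.57e-06). C1QTNF3 fell by 0.95, from 72.6 and 87.2 to 46.2 and 35.8. EMILIN1, an elastic fibre glycoprotein, fell by 0.41 and EMILIN2 by 0.28. CTHRC1 fell by 0.31 and SCARA5 by 0.27. Of the 18 tested genes of the list, 13 had groups that did not overlap, beside 63.1% of all tested genes.

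Among pseudogene rows of the family, COL6A4P1 had 11.8 and 18.4 counts with vehicle and 27.0 and 44.4 with octanoate, a log2 difference of 1.18 (limma, adjusted p = 0.0158). COL6A4P2 had 7.85 and 7.75 against 7.70 and 11.9, too few to test.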
